A study of Mus musculus with 4 samples.

Results

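Genes of the mitochondrial ribosome were compared between whole mouse embryos that lacked Cop1 and control embryos. The members were all probe sets of the array whose only gene symbol begins with Mrpl or Mrps followed by a digit, which gave 156 of the 45037 probe sets tested and 76 of 18193 genes. Of these genes, 47 carry the letter l of the large subunit (104 probe sets) and 29 the letter s of the small subunit (52 probe sets). Mrpl30 and Mrpl53 stood only on probe sets that also name another gene (Gm6238 and Ccdc142), so neither was measured. The family was chosen with its differences between these arrays in view. The differences below are therefore a description. Calls given for single members come from the same contrast, so they are no independent test of the family or of its members.

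The embryos were Mus musculus at embryonic day 9.5, while the sources used here give neither strain nor sex. The null group was Cop1-null, and the control group mixed wild-type (+/+) and heterozygous (+/-) embryos. RNA of 6 embryos per genotype was combined into 1 pool, and each pool was divided into 2 portions that went onto 1 Affymetrix array each. The 4 arrays therefore compare 2 pools of RNA, the replicates of a genotype are technical, and the genotype itself has no replicate check. The sources used here do not say how the Cop1 allele was made.

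Mitochondria carry their own ribosome, which makes the few proteins that mitochondrial DNA encodes, all of them subunits of the respiratory chain or the ATP synthase. Its protein subunits are encoded in the nucleus, made in the cytosol and imported, and its RNA comes from mitochondrial DNA. The small subunit binds the messenger RNA and decodes it, and the large subunit joins the amino acids and lets the new chain out at the inner membrane. Some subunits descend from bacterial ribosomal proteins and others have no bacterial counterpart. NRF1 and the ETS factor GABPA are known regulators of many nuclear genes of mitochondria.

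The promoters printed here are those the results return to. They belong to members that read low in the null pool (Mrps11, Mrps18c, Mrps12, Mrpl43, Mrpl41 and Mrpl20) and to Mrpl32 and Mrpl9, which read higher there without a call. The members of highest difference, Mrpl45, Mrpl24, Mrpl23 and Mrps30, are not among those printed. Where a second gene starts close by on the opposite strand, the bases between the 2 starts are shown, and otherwise the 100 bases before the start. All are from RefSeq, build GRCm38.p6, written 5′ to 3′ on the strand of the first gene named. Capitals mark the letters of the motifs searched, on either strand (spelled out with the motif counts further on): those of the ETS family, NRF1, the E-box and the CCAAT box.
Mrps11/Mrpl46 gap, chr7:78783090-78783130, + strand: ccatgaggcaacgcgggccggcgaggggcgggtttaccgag
Mrps18c/Helq gap, chr5:100798601-100798758, + strand: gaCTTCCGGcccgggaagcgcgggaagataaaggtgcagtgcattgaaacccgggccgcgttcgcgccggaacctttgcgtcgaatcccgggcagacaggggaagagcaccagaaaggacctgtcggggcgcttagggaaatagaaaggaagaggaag
Mrps12/Sars2 gap, chr7:28741822-28741967, - strand: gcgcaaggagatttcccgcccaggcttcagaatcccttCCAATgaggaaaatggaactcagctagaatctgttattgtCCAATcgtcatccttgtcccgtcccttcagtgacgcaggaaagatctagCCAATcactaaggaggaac
Mrpl43/Twnk gap, chr19:45006443-45006557, - strand: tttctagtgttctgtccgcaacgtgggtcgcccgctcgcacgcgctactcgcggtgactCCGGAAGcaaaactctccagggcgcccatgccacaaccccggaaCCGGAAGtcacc
Mrpl32/Psma2 gap, chr13:14613038-14613241, - strand: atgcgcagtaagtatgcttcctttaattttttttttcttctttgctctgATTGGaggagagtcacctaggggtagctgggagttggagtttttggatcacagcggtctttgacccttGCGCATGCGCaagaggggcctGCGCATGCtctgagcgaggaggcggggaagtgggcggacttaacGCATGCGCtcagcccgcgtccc
Mrpl41 upstream, chr2:24975099-24975198, - strand: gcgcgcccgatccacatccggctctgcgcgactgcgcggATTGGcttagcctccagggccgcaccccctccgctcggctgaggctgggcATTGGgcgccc
Mrpl20 upstream, chr4:155802778-155802877, + strand: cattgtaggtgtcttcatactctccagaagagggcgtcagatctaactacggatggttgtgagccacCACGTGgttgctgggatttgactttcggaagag
Mrpl9 upstream, chr3:94443236-94443335, + strand: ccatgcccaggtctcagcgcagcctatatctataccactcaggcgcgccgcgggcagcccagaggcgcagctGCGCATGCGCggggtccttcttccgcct
The Mrps11 and Mrpl46 starts lie so close that the whole gap fits on 1 line, with none of the motifs in capitals. The windows used for the motif counts further on are longer than these stretches, and that of Mrps11 holds the YY1 letters. The Mrpl43 gap holds the ETS letters at 2 places, the Mrps12 gap the CCAAT box at 3, and the Mrpl32 gap the NRF1 letters at several.

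The mitochondrial ribosomal protein genes read lower in the null pool across most of the family. The difference, null minus control on the log2 scale, was negative for 66 of the 76 genes and positive for 10, with a median of -0.30, against a median of -0.02 over all 18193 genes. The quartiles of the members were -0.45 and -0.11, and the extremes were Mrpl41 at -1.28 and Mrpl45 at 0.51. Both null arrays lay below both control arrays for 61 members (80.3%), and both lay above for 7. Over all genes 54.1% were negative, and the groups did not overlap with the null arrays lower in 39.3% and higher in 28.9%. Bright genes as a whole lay slightly below zero, with a median of -0.09 over the 6452 genes whose mean reading fell within the members' range. Of these 6452 genes 59.9% were negative. Both null arrays lay below both control arrays for 3425 of them (53.1%), and both lay above for 2181.

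Few single members differed by as much as 1.5-fold. A gene was called when limma gave an adjusted p under 0.05 and the fold was at least 1.5, and by that rule 12 members were lower and 0 higher. Over all genes 8.06% were called lower and 3.58% higher, and since the family was chosen on this contrast nothing is read from its count. By the adjusted p alone 43 members were lower and 4 higher, beside 21.8% and 12.0% of all genes. At an unadjusted p under 0.05 in limma, 49 members were lower and 6 higher, beside 27.5% and 16.8% of all genes. The portions of a pool differed by a median of 0.03 (control) and 0.04 (null), and by at most 0.13 and 0.17 for any member. For 68 of the 76 members the difference between the pools was larger than the gap between either pair of portions. That count was not made over all genes, and nothing about the members is read from it. In RNA of whole embryos, fewer cells of a type and less RNA per cell cannot be told apart.

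**Figure D1:**
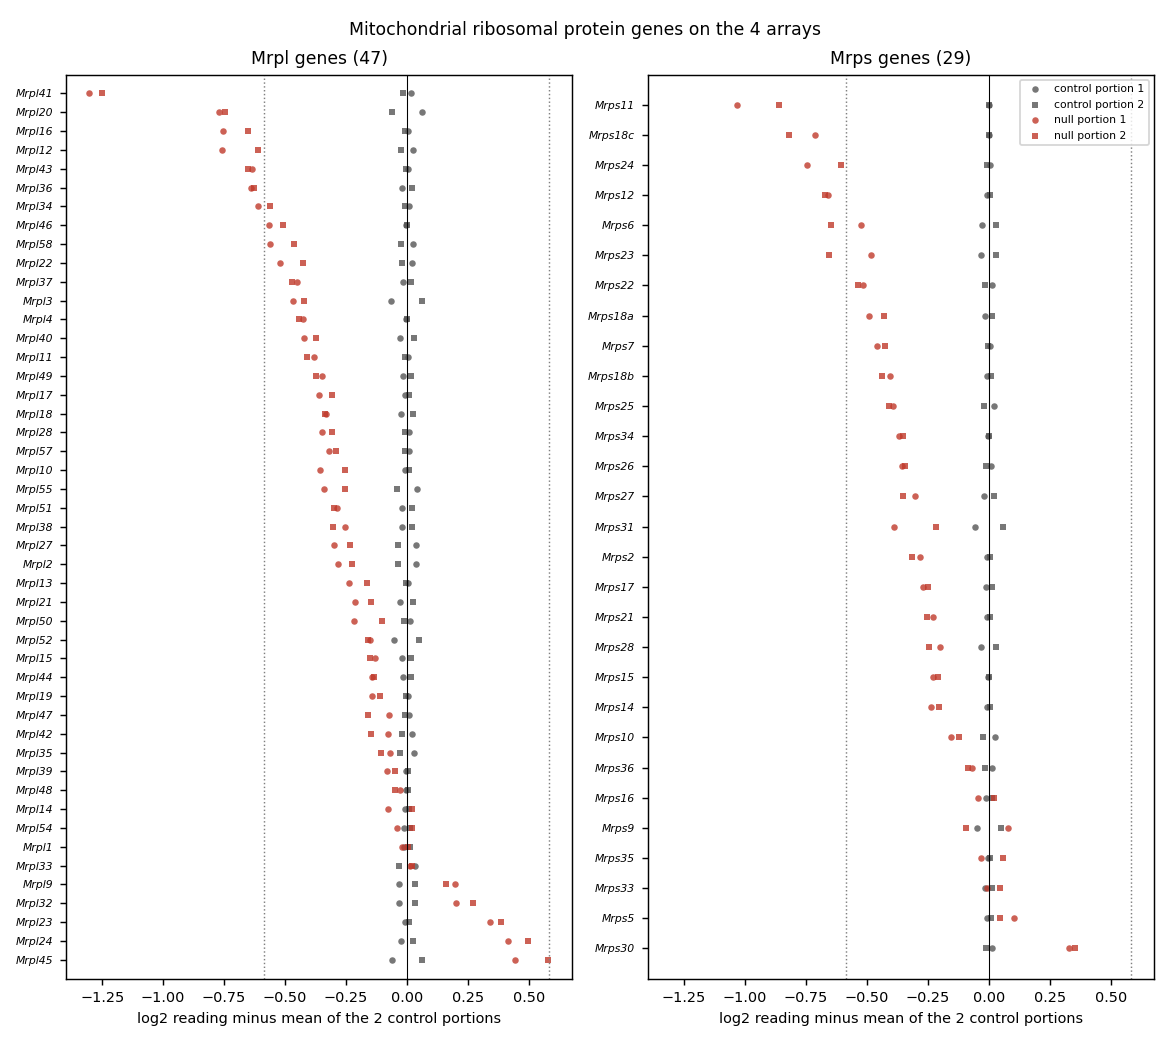
Log2 reading of each of the 76 genes on each of the 4 arrays, minus the mean of its 2 control portions, for Mrpl genes (left) and Mrps genes (right), ordered by difference, with dotted lines at the 1.5-fold limit. The null portions (red) lie below the control portions (grey) for 61 genes and above them for 7, and the remaining 8 overlap.

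The large and the small subunit differed by about the same amount. The median difference was -0.28 over the 47 large-subunit genes and -0.30 over the 29 small-subunit genes, so that large minus small was 0.02. After each gene was centred on its mean over the 4 arrays, the large-subunit medians were 0.14 and 0.13 in the control portions, against -0.16 and -0.10 in the null portions. The small-subunit medians were 0.14 and 0.17 in the control portions, against -0.14 and -0.17 in the null portions. Both subunits were thus high on the control arrays and low on the null arrays. Of the large-subunit genes 41 were negative, 38 had both null arrays below both controls and 7 were called lower. Of the small-subunit genes 25 were negative, 23 had both null arrays below and 5 were called lower. Over all genes the same shares were 54.1%, 39.3% and 8.06%. Among genes within the members' range of mean readings they were 59.9%, 53.1% and 10.1%. Large minus small stayed between 0.00 and 0.08 under the 12 alternatives computed for it.

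The letter in the symbol does not always give the place of the protein. Mrps30 and Mrps18a encode proteins of the large subunit, and Mrps36 encodes a protein now known from the oxoglutarate dehydrogenase complex. By place, 49 large-subunit genes had a median of -0.28 and 26 small-subunit genes one of -0.31. Origin gave medians as close, with -0.27 over 47 genes with a bacterial homologue and -0.30 over 28 genes specific to mitochondria. Of the 12 members called lower, 10 have a bacterial homologue, and Mrpl41 and Mrpl43 do not. Mrps36 itself differed by -0.08.

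The lowest difference of the family was that of Mrpl41, which encodes a large-subunit protein without a bacterial counterpart. It read 10.44 and 10.41 in the control portions and 9.12 and 9.17 in the null portions, a difference of -1.28 (SE 0.06) or 2.43-fold. Both null arrays lay far below both controls, and a second Mrpl41 probe set gave -1.31 while the third gave -0.29.

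In the small subunit, several of the low members are proteins of the platform, the side of the subunit that holds the messenger RNA near the exit site. Mrps11, a platform protein, read 9.38 and 9.38 in the control portions and 8.34 and 8.51 in the null portions (-0.95, SE 0.08). Mrps18c, another platform protein and 1 of 3 relatives of bacterial S18, read 10.83 and 10.83 against 10.12 and 10.01 (-0.77). Mrps6, their neighbour, read 9.92 and 9.98 against 9.42 and 9.30 (-0.59). In each of these the groups were well apart, although Mrps6 lay on the fold limit itself. The other 2 platform members, Mrps21 at -0.24 and Mrps15 at -0.22, were not called, and the median of the 5 was -0.59. That median rests on the probe set of highest mean of each gene. Other probe sets of Mrps11 (1.04) and Mrps21 (0.62) were called higher. The second probe set of Mrps6 gave -0.53, and the others of Mrps15 gave -0.14 and 0.17. This grouping of subunits by place was made after the values were seen.

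In the head, Mrps24, which lies at the messenger RNA entry, read 10.36 and 10.34 against 9.60 and 9.74 (-0.68), and its second probe set gave -0.68 too. The head proteins Mrps7 (-0.44), Mrps14 (-0.22), Mrps10 (-0.14) and Mrps9 (-0.01) were not called, and the null arrays of Mrps9 overlapped the controls. In the body, Mrps12, a protein of the decoding centre, read 10.30 and 10.32 against 9.65 and 9.64 (-0.67). Its groups were clearly apart, whereas Mrps17 differed by -0.26, Mrps16 by -0.01 and Mrps5 by 0.07. Among small-subunit proteins specific to mitochondria, Mrps23 (-0.57) and Mrps22 (-0.53) came closest to the fold limit without a call. Mrps25 (-0.40), Mrps34 (-0.36), Mrps26 (-0.35), Mrps27 (-0.33) and Mrps31 (-0.30) followed, and Mrps33 (0.02) and Mrps35 (0.01) overlapped the controls. Mrps18b differed by -0.42 and Mrps18a by -0.46. Thus all 3 S18 relatives had both null arrays below both controls, as did 39.3% of all genes. Mrps2 (-0.30) and Mrps28 (-0.22) were also low on both null arrays.

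In the large subunit, the stalk that recruits translation factors was low throughout. Mrpl12, the stalk protein that also binds the mitochondrial RNA polymerase, read 11.26 and 11.20 in the control portions and 10.47 and 10.62 in the null portions (-0.69). Mrpl11 and Mrpl10, which lie at the stalk base, differed by -0.39 and -0.30. All 3 had both null arrays below both controls, as did 39.3% of all genes.

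Mrpl20, the counterpart of a bacterial protein that binds early in assembly, read 10.91 and 10.79 against 10.08 and 10.11 (-0.76). Mrpl16, which lies near the peptidyl transferase centre, read 9.91 and 9.90 against 9.15 and 9.25 (-0.70). Mrpl43, a mitochondria-specific protein, read 10.37 and 10.36 against 9.73 and 9.72 (-0.64). Their 3 pairs of null arrays lay below the controls by several times the gap between portions. Mrpl36 read 9.69 and 9.72 against 9.06 and 9.08 (-0.63), and Mrpl34 read 10.68 and 10.67 against 10.07 and 10.12 (-0.59). Both encode very short proteins with bacterial homologues, and Mrpl34, like Mrps6, lay on the fold limit.

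For the central protuberance, where the large subunit faces the head of the small one, 6 measured members were grouped, none of them past the fold limit. The group need not hold every member of that place. Lowest of the 6 was Mrpl46, with 9.70 and 9.70 against 9.13 and 9.19 (-0.54). Mrpl40 (-0.40), Mrpl18 (-0.33), Mrpl38 (-0.28), Mrpl27 (-0.27) and Mrpl48 (-0.04) followed. All 6 had both null arrays below both controls, beside 39.3% of all genes. Mrpl58, a peptidyl-tRNA hydrolase that sits in the ribosome and is related to factors that rescue stalled ribosomes, differed by -0.51. Mrpl37 (-0.46), Mrpl3 (-0.45), Mrpl4 (-0.43), Mrpl49 (-0.36) and Mrpl28 (-0.33) lay below the family's median.

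The remaining large-subunit members that were lower on both null arrays lay between -0.30 for Mrpl57 and -0.06 for Mrpl39. Between these were Mrpl55 (-0.30), Mrpl51 (-0.29), Mrpl2 (-0.25), Mrpl13 (-0.20), Mrpl21 (-0.18), Mrpl50 (-0.16), Mrpl52 (-0.16), Mrpl15 (-0.14), Mrpl44 (-0.14), Mrpl19 (-0.13), Mrpl42 (-0.11) and Mrpl35 (-0.09). Mrpl39, Mrpl42 and Mrpl13 were the 3 members of highest mean reading, and Mrpl1, Mrps27 and Mrps11 the 3 of lowest, although readings of different probe sets do not rank the genes' transcripts. Mrpl14 (-0.03), Mrpl54 (-0.01), Mrpl1 (-0.01) and Mrpl33 (0.02) overlapped the controls.

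The proteins around the exit of the polypeptide tunnel, again grouped after the values were seen, held members on both sides of the controls. Of 7 measured members there, 4 had both null arrays above both controls without a call, 3 had both below, and the median was 0.24. Over all genes 28.9% had both null arrays above and 39.3% had both below. Mrpl45, which anchors the ribosome at the inner membrane, read 10.08 and 10.20 in the control portions and 10.58 and 10.72 in the null portions (0.51, SE 0.08, or 1.43-fold). Mrpl24, a protein at the tunnel exit, read 10.74 and 10.79 against 11.18 and 11.26 (0.46). Mrpl23, its neighbour there and a gene with a listed pseudogene, read 10.59 and 10.61 against 10.94 and 10.99 (0.36). The null arrays of these 3 were higher than both controls, but none reached the fold limit. Mrpl32, which is cleaved by a mitochondrial protease before it joins the ribosome, read 10.27 and 10.33 against 10.50 and 10.57 (0.24). The other exit proteins were lower, Mrpl22 at -0.47, Mrpl17 at -0.33 and Mrpl47 at -0.12.

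Outside the exit, 3 further members had both null arrays above both controls, as did 28.9% of all genes. Mrps30 read 9.97 and 9.94 against 10.28 and 10.31 (0.34), while Mrpl37, of the same protein family, read 9.56 and 9.59 against 9.13 and 9.10. These relatives thus lay on opposite sides of the controls. Mrpl9 read 9.79 and 9.85 against 10.02 and 9.98 (0.18), and its other 2 probe sets gave 0.18 and 0.22. Mrps5, the last of the 3, differed by 0.07. With the arrays centred on the poly-A spikes, Mrpl45, Mrpl24, Mrpl23 and Mrps30 stayed positive at 0.08 to 0.26, whereas Mrpl32 (-0.02), Mrpl9 (-0.08), Mrps5 (-0.18) and Mrps33 (-0.24) turned negative. Mrps33 was also negative after median centring (-0.04) and without null replicate 2 (-0.01), and Mrps5 as a mean of its probe sets (-0.29).

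**Figure D2:**
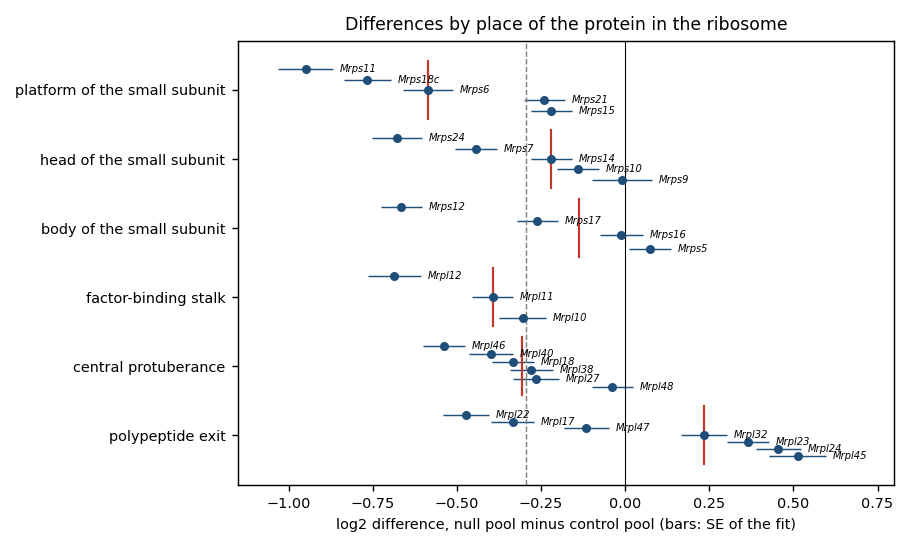
Log2 difference (null pool minus control pool, bars the SE of the fit) of the members grouped by the place of their protein in the ribosome, with red lines at the median of each place and a dashed line at the family's median of -0.30. With each gene given by its probe set of highest mean, the platform of the small subunit lies lowest (median -0.59). Of the 6 places plotted only the polypeptide exit has a positive median (0.24).

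Different probe sets of 1 gene did not always read alike. Of the 76 genes, 42 had several probe sets, up to 8 for Mrpl15, and each gene above is given by the probe set of highest mean. Over all 156 probe sets the median difference was -0.22, with 20 called lower and 7 called higher, beside 6.96% and 6.76% of all probe sets. The 80 probe sets that stand for no gene had a median of -0.18, with 8 called lower and 7 higher. All 7 higher calls of the family came from these.

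Mrps11 was the single member with calls in opposite directions. Its dimmer probe set read 5.15 and 5.16 in the control portions and 6.17 and 6.23 in the null portions (1.04), against the -0.95 of its brighter one. The mean of both was 0.05, so the direction of Mrps11 rests on which probe set is read. Mrpl15 had 2 probe sets called higher (0.94 and 0.61), while its 4 probe sets of highest mean lay between -0.20 and -0.14. Mrps10 (0.74), Mrps9 (0.68), Mrpl3 (0.64) and Mrps21 (0.62) each had a probe set called higher, without a call on the brightest one. Calls lower came from second probe sets of Mrpl47 (-1.06), Mrpl1 (-0.88), Mrps25 (-0.64), Mrps23 (-0.63), Mrpl35 (-0.60) and Mrps5 (-0.59). For Mrpl1 the brightest probe set read 7.97 and 7.99 against 7.96 and 7.98, with no difference, while another read 7.58 and 7.79 against 6.75 and 6.87.

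The level of the reading went with this split. Among the members' 43 probe sets of mean under 7, the median was -0.02, with 4 lower (9.30%) and 6 higher calls. All 28031 such probe sets had a median of 0.03, with 1216 lower (4.34%) and 1724 higher calls. Among the 113 of mean 7 and over, the median was -0.26, with 16 lower (14.2%) and 1 higher call. All 17006 such probe sets had a median of -0.08, with 1918 lower (11.3%) and 1320 higher calls. The share of lower calls was thus larger at the higher level for all probe sets too. Whether the dim probe sets read other transcripts was not tested. RefSeq lists pseudogenes of Mrpl23, Mrpl27, Mrpl48 and Mrps36, and a probe set can read a near-identical copy along with the gene.

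**Figure D3:**
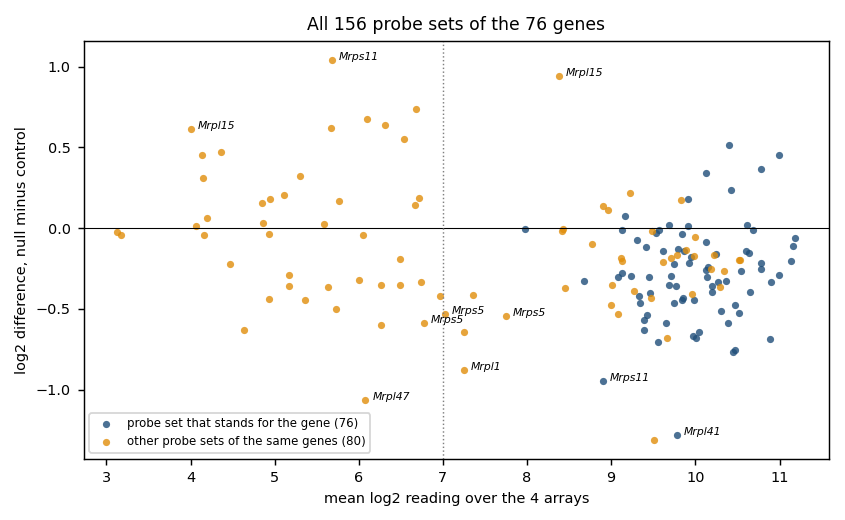
Log2 difference (null minus control) of all 156 probe sets of the family against their mean log2 reading, with the probe set that stands for each gene in blue, the others in orange and a dotted line at a reading of 7. To the left of the line the differences spread on both sides of zero (median -0.02), and to the right most lie below it (median -0.26).

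Other genes of mitochondrial translation were followed from lists drawn up for this comparison. Beside the list counts below stand 8.06% of all genes called lower and 3.58% called higher. At an unadjusted p under 0.05 in limma the shares of all genes were 27.5% and 16.8%. No set test was made, and several lists lie near these shares. The ribosome subunits whose symbols fall outside the rule gave 0 calls among 4 measured, with differences of 0.14 for Dap3, 0.05 for Chchd1, 0.01 for Ptcd3 and -0.19 for Gadd45gip1. In limma 1 of them was lower and 0 higher at an unadjusted p under 0.05, and their median was 0.03. Genes of ribosome assembly gave 6 lower and 0 higher of 28 (14 and 2 at an unadjusted p under 0.05 in limma), with a median of -0.18. Fastkd5, which is needed to process mitochondrial transcripts, read 9.31 and 9.29 against 7.58 and 7.63 (-1.69). The rRNA endonuclease gene Ybey (-0.87), the helicase gene Ddx28 (-0.73) and the rRNA methyltransferase gene Mrm2 (-0.72) were the next lowest.

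Among 15 measured translation factors 3 were lower and 0 higher (6 and 2 at an unadjusted p under 0.05 in limma), with a median of -0.08. Pdf, the deformylase that takes the formyl group off the first residue of new mitochondrial proteins, read 9.52 and 9.52 against 8.49 and 8.50 (-1.03). Letm1, an inner-membrane protein linked to ion balance, differed by -0.82 and the elongation factor gene Tsfm by -0.59. Mitochondrial aminoacyl-tRNA synthetase genes gave 1 lower of 21 (7 lower and 3 higher at an unadjusted p under 0.05 in limma) and a median of 0.03. The gene called was Qrsl1 (-0.71), a subunit of the amidotransferase that completes glutamine tRNA. Genes of mitochondrial DNA and RNA gave 0 calls in limma among 25 (median -0.09, 7 lower and 3 higher at an unadjusted p under 0.05), the largest change being that of the transcription elongation factor gene Tefm (-0.53). Protein import gave 0 calls in limma among 27 (median -0.13, 12 lower and 5 higher at an unadjusted p under 0.05), led by the carrier translocase gene Timm22 (-0.54).

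Regulators of mitochondrial biogenesis gave 1 lower and 1 higher of 15, beside 8.06% and 3.58% of all genes, and a median of -0.04. At an unadjusted p under 0.05 in limma 2 were lower and 4 higher, beside 27.5% and 16.8% of all genes. The coactivator gene Pprc1 was lower (-0.62) and its relative Ppargc1b higher (0.62). Ppargc1b was dim, at 6.13 and 6.20 in the control portions and 6.83 and 6.74 in the null portions. The transcription factor gene Nrf1 differed by 0.34, Yy1 by 0.22, Gabpa by -0.14, Esrra by -0.14 and Tfam by -0.11, with no call.

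The 2 nearest gene families for comparison lay closer to zero. Cytosolic ribosomal protein genes had a median of 0.03 over 46 genes, with 1 lower and 1 higher (1 and 5 at an unadjusted p under 0.05 in limma), and 33 of them were positive. Respiratory chain and ATP synthase genes had a median of -0.13 over 72 genes, with 3 lower and 2 higher (27 and 7 at an unadjusted p under 0.05 in limma). Both null arrays lay below both controls for 50 of these 72 genes (69.4%) and for 5 of the 46 cytosolic ones (10.9%). The share was 39.3% over all genes and 53.1% over genes within the members' range of mean readings. The families also differed in level. Median readings on the control arrays were 13.76 for the cytosolic genes, 11.70 for the respiratory genes and 10.07 and 10.13 for the members. No test of the difference between families was made, and the part of the level in it was not tested.

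**Figure D4:**
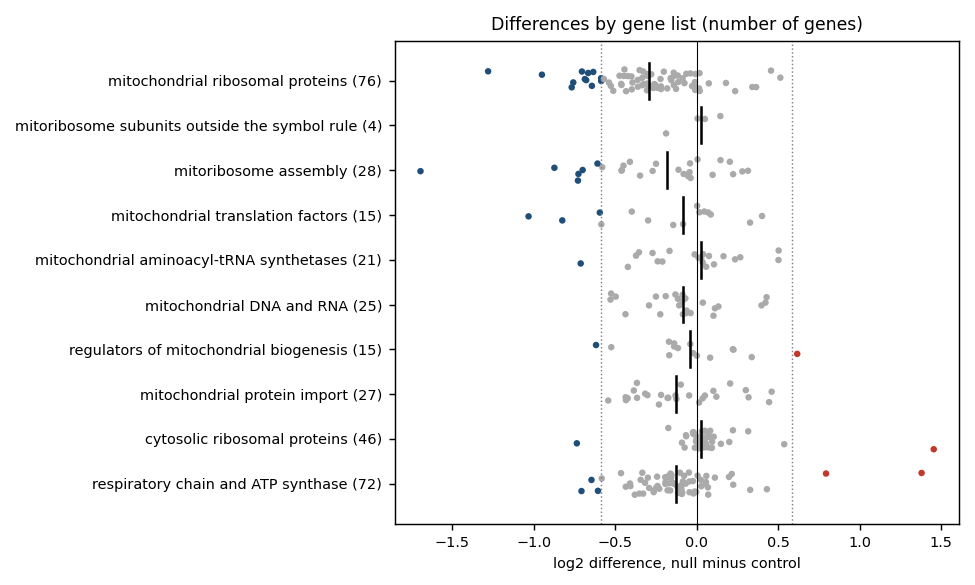
Log2 difference (null minus control) of every measured gene of the mitochondrial and ribosomal lists, 1 point per gene with a small vertical scatter, genes called lower in blue, genes called higher in red, black bars at the medians and dotted lines at the 1.5-fold limit. The mitochondrial ribosomal protein genes have the lowest median of the lists drawn here (-0.30), followed by ribosome assembly (-0.18), while the cytosolic ribosomal proteins lie at 0.03.

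Many members share a start region with another gene. Of the 67 members with a promoter in the RefSeq table, 23 (34.3%) had a protein-coding gene starting on the opposite strand within 1000 bases, compared with 8.48% of 17491 protein-coding genes. No such share was computed for genes at the members' level of reading. In 21 pairs the neighbour was a measured gene outside the family, at a median distance of 147 bases. In these pairs the member was negative in 19 and the neighbour in 9, with medians of -0.33 and 0.03. In 11 pairs the member was negative and the neighbour positive, and in 8 both were negative. Of the 21 members 4 were called lower, and of the 21 neighbours 0 were called in either direction by limma, with 5 lower and 2 higher at an unadjusted p under 0.05. Among all genes 8.06% were called lower and 3.58% higher, with 27.5% and 16.8% at the unadjusted limit in limma.

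Mrpl41 and Mrps12 show the contrast, with their promoters printed above. Mrpl41 differed by -1.28 and Pnpla7, which starts 935 bases away, by 0.48. This was the widest gap of the pairs, and Pnpla7 was dim, with means of 6.79 in the control and 7.26 in the null portions. Mrps12 differed by -0.67 and Sars2, which encodes the mitochondrial seryl-tRNA synthetase and starts 147 bases away, by 0.03. Mrps18c (-0.77) stands beside the helicase gene Helq (-0.14), and Mrpl43 (-0.64) beside Twnk (-0.22), the helicase gene of mitochondrial DNA replication. The ribosomal gene Fau beside Mrpl49 (-0.36) differed by 0.11, and the chaperonin gene Tcp1 beside Mrpl18 (-0.33) by 0.03. Mrpl32 and the proteasome gene Psma2 went the other way, at 0.24 and -0.28. Mrps11 and Mrpl46, the 2 members that share a start region, 42 bases apart, were both low on both null arrays (-0.95 and -0.54).

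**Figure D5:**
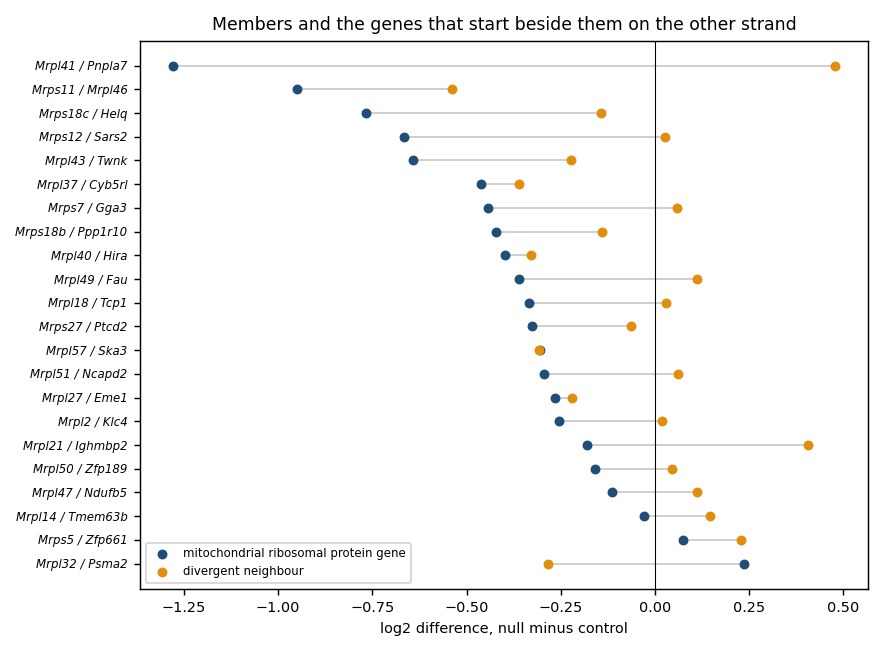
Log2 difference (null minus control) of each member (blue) and of the gene that starts within 1000 bases on the opposite strand (orange), joined by a line, with Mrps11 and Mrpl46 as a pair of members. The members lie to the left of zero in 19 of the 21 pairs with a neighbour outside the family, and the neighbours in 9.

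The promoter letters were compared over windows of 300 bases, 250 before the start and 50 after, on both strands. The ETS letters CCGGAAG stood in 25 of 67 member promoters (37.3%), in 9.93% of all 27025 promoters and in 23.2% of the 5912 belonging to genes with a mean reading over 8. The YY1 letters AAGATGGCG stood in 8 (11.9%), against 1.64% and 4.67%. The NRF1 core GCATGCGC, which lies within the longer NRF1 letters, stood in 8 (11.9%), against 3.05% and 7.09%. The longer form, which adds the letters GC before that core, was found in 3 members, Mrpl39, Mrpl9 and Mrpl32. The E-box CACGTG, in 5 members (7.46%, against 8.09% and 12.3%), and the CCAAT box ATTGG, in 26 (38.8%, against 41.1% and 43.8%), were no more frequent than elsewhere. The ESRRA letters TCAAGGTCA were in 0 of the 67 windows and in 0.466% of all promoters.

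Within the family, the median difference was -0.33 for the 25 with the ETS letters and -0.26 for the 42 without. It was -0.46 for the 8 with the YY1 letters and -0.30 for the others, and -0.63 for the 5 with an E-box and -0.30 for the others. It was -0.18 for the 8 with the NRF1 core and -0.30 for the others, and 0.18 for the 3 with the longer NRF1 letters and -0.30 for the others. The members of highest difference, Mrpl45, Mrpl24, Mrpl23 and Mrps30, held neither form of the NRF1 letters. The CCAAT box gave -0.28 for the 26 with it and -0.30 for the 41 without. Of the 12 members called lower, 4 held the ETS letters, 3 the YY1 letters, 3 an E-box and 0 the NRF1 core. A match of letters is not a measured binding site, and no binding was measured here.

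The arrays of a pool had a Pearson's r of 0.998 across probe sets in either genotype and of 0.980 to 0.982 between genotypes, and probe sets are not independent replicates. Cop1 itself gave readings of 11.35 and 11.26 for the control portions against 9.67 and 9.77 for the null portions (-1.58), although the position of its probe set relative to the deleted part is not known here. Marker lists of cell types moved as well. Beside their counts stand 8.06% of all genes called lower and 3.58% higher, and 16.8% higher at an unadjusted p under 0.05 in limma. Of 5 yolk sac and liver endoderm genes 3 were lower (Alb, Ttr and Afp), and their summed level, on the log2 scale, was 12.15 to 12.21 in the control and 11.12 to 11.13 in the null portions. Of 5 neural tube genes 2 were lower (Fabp7 and Nes), with sums of 12.59 to 12.62 and 12.09 to 12.13. Of 4 endothelial genes 2 were higher (Kdr and Pecam1), with sums of 9.98 to 10.03 and 10.56 to 10.57. Of 6 primitive erythroid genes 1 was lower (Klf1), with sums of 16.03 and 15.97 to 15.98, and 0 of 5 heart muscle genes were called by limma (1 higher at an unadjusted p under 0.05), with sums of 12.09 to 12.13 and 12.06 to 12.07. Of 4 placenta and decidua genes 1 was higher (Ascl2), with overlapping sums of 7.24 to 7.37 and 7.25 to 7.67. The part of these cell types in the family's differences was not tested.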

How the data were processed

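The authors deposited 1 table of log2 expression values for the 4 arrays, for which the submitters' processing notes name RMA and affy. The sources used here give neither their versions nor the probe mapping. RMA gives all arrays 1 distribution of intensities, so a change in total RNA leaves no trace. For arrays, precision is limited by their number. The values were used as deposited.

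Of 45101 probe sets, 64 were Affymetrix controls and were left out. The platform's annotation lists 34945 of the rest with 1 gene, 932 with several and does not list 9160. RefSeq gene numbers (GRCm38.p6) matched 34741 and changed 0 symbols. A gene stood by its probe set of highest mean, which gave 18193 genes. All 45037 probe sets were fitted with limma 3.58.1 in R 4.3.3 (lmFit, eBayes, genotype as the only term), with Benjamini-Hochberg adjustment over all of them. The fit was tested on simulated data. Its p-values measure the spread between portions of a pool.

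The members and lists were chosen with earlier results of these data known. All members could be named. Values were given in detail for the 10 lowest and 8 highest differences, for Mrps11, whose probe sets were called in opposite directions, and for Cop1. From each list up to 4 called genes were named, or the largest change where none was called, and further list genes and members were chosen after their values were seen. Promoters of 67 of the 76 members were matched by symbol. Alternatives covered normalization, centring, dim probe sets, the probe set of a gene, the variance model, the fold limit, each array left out and the replicate number as a block.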

Additional observations from a re-analysis of the deposited data

How the results depend on the processing

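The family's median difference of -0.30 was negative under every alternative computed for it. A second quantile normalization gave -0.24 over all members, -0.23 over the large and -0.25 over the small subunit, and median centring gave -0.36, -0.34 and -0.37, with 15 members lower. Poly-A spike centring gave -0.55, -0.53 and -0.56 with 32 members lower. All genes then had a median of -0.28 in place of -0.02, and the spikes differed as much between control portions (7.23 and 7.49) as between pools. Calls over all genes were not counted after either centring, so nothing about the family is read from the counts of members lower. The mean of all probe sets gave -0.26 over all members and turned Mrps11 to 0.047, and leaving out _x_at and _s_at probe sets gave -0.27. Without the fold limit 43 members were lower and 4 higher, beside 21.8% and 12.0% of all genes.

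With 1 array left out at a time, the median ranged from -0.30 to -0.25 over all members, from -0.29 to -0.25 over the large and from -0.34 to -0.29 over the small subunit. Large minus small ranged from 0.00 to 0.08, and 11 to 12 members were lower and 0 higher. Mrpl34 missed the limits without control replicate 1 or null replicate 1, and Mrps6 without control replicate 2 or null replicate 2. A second quantile normalization lost Mrpl34, Mrpl36 (-0.58) and Mrps6, the mean of probe sets Mrpl34, Mrps11 and Mrps6, and leaving out the suffixed probe sets Mrps6, while Mrps12 and Mrps24 have only suffixed ones. The replicate block gave 12 members lower, the same 12, and 0 higher. Replicate numbers did not pair the arrays (r 0.06 between same-numbered deviations). Leaving out the dimmest 40% of probe sets and an intensity trend in the variance changed no call.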
